A study of Mus musculus with 8 samples.

Results

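The nuclear genes of the last 3 complexes of oxidative phosphorylation were followed in brown adipose tissue of wild-type mice (WT) and of mice whose brown adipocytes lack Ogt by a cell type-specific knockout (OGTBKO). The genes were selected on name and level: protein-coding genes outside the mitochondrial chromosome whose symbols start with Uqcr, Uqcc, Cox4 to Cox8, Cox10 to Cox20 or Atp5, with Cyc1 and Cycs, and whose mean over the 8 libraries reached 0.5 FPKM (fragments per kilobase of gene, scaled for depth). Of 54532 genes in the table, 58 matched by name and 54 of them reached that level, among 13171 genes that did. Of the 4 left out, Cox20 had a mean of 0.272 FPKM, and Cox7b2, Cox8c and a second gene model named Atp5o were listed at 0 in every library. Just inside the limit were Cox6b2, with a mean of 0.860 FPKM, and Atp5g1, with 1.07 FPKM. Both had means above the limit in each group, so neither was kept through a single group. The members were chosen by measured level and name, with earlier results of these data known, and their levels are therefore a description.

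Each group had 4 libraries, numbered 1 to 4. All mice were kept at 23 °C, and after 8 weeks all were induced with an agent that the labels spell gomaxifen. The brown fat was collected 2 months after induction, with the white fat around it taken off. The sources used here do not give the promoter that drives the recombinase, the deleted exons or the sex of the mice. OGT is the enzyme that places single N-acetylglucosamine sugars on serines and threonines of intracellular proteins, mitochondrial proteins among them. The labels call the cell type adipocytes, but whole tissue was sequenced, so fewer cells of a type and less RNA per cell cannot be told apart. The labels do not say that each library came from its own animal, so p-values here reflect only how far these libraries spread.

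Complex III (the cytochrome bc1 complex) passes electrons from ubiquinol to cytochrome c, complex IV (cytochrome c oxidase) passes them on to oxygen, and both pump protons out of the mitochondrial matrix. Complex V (ATP synthase) lets the protons back in and makes ATP. Each complex is a mosaic, with a small part encoded in mitochondrial DNA and a larger set of subunits encoded in the nucleus, and each needs dedicated assembly factors. Several complex IV subunits exist as a general form and as a form made mainly in heart, skeletal muscle and brown fat, such as Cox7a1 beside Cox7a2 and Cox8b beside Cox8a. Brown fat is known for its high content of complexes III and IV and its low content of ATP synthase, because the uncoupling protein UCP1 returns protons without making ATP.

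Reads in genes numbered 13393962 to 15897920 per library, and for each kb of gene 1 read corresponded to 0.0556 to 0.0945 FPKM. Ogt, the targeted gene, lay at 22.5 to 33.1 FPKM in WT libraries and, without overlap, at 10.7 to 14.5 FPKM in OGTBKO libraries (log2 change -1.03 ± 0.14, SE; limma adjusted p = 0.00511). Brown adipocyte genes were present throughout, with Ucp1 at 1512 to 2524 FPKM in WT and 904 to 1096 FPKM in OGTBKO. Their summed level over 10 markers lay between 2844 and 4210 FPKM in WT and between 2224 and 2790 FPKM in OGTBKO. Ucp1, with means of 2051 and 1006 FPKM, weighed most in that sum. Of the 10, 3 (Ucp1, Ppargc1a and Prdm16) fell, or 30%, against 7.46% of all genes tested, and 0 rose. By log2 change, 6 of the 10 were below 0 and 4 above 0, with Elovl3 the highest (1.75, limma adjusted p = 0.111). A sum over 6 white adipocyte markers lay between 53.2 and 126 FPKM in WT and between 156 and 209 FPKM in OGTBKO. Of those, 5 were tested and 2 (Lep and Sncg) rose, or 40%, against 8.11% of all genes tested. All 5 had log2 changes above 0, while Hoxc9 was at 0 in 3 libraries of each group. A sum over 7 macrophage markers lay between 176 and 352 FPKM in WT and between 241 and 562 FPKM in OGTBKO, and 0 of the 7 passed the test. Lyz2, with means of 173 and 317 FPKM, weighed most in that sum. By log2 change, 5 of the 7 were above 0 and 2 below (Mrc1 at -0.62 and C1qb at -0.22). Endothelial markers summed to 97.1 to 128 FPKM in WT and to 121 to 132 FPKM in OGTBKO. Cdh5 alone of the 7 passed the test, upward, which is 14.3%, against 8.11% of all genes tested. Smooth muscle and pericyte markers summed to 102 to 178 and 124 to 143 FPKM, and 0 of the 5 tested passed. The part of any of these cell types in the changes below was not tested.

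Some libraries stood apart. Skeletal muscle markers summed to 670 FPKM in WT 1 and 1890 FPKM in OGTBKO 1, against 22.6 to 68.8 FPKM in the other 6. WT 3 had the largest share of mitochondrially encoded reads, 39.4%, against 25.2% to 32.2% in the other 7. WT 1 was the highest WT library for 28 of the 54 members, WT 3 the lowest for 26, and OGTBKO 4 the highest OGTBKO library for 34.

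The promoters of 4 genes are shown because their genes carry the changes described below: Cox7a1 and Cox7a2 are the pair of tissue and general forms whose proportions lay farthest apart between the groups, and Uqcc2 and Atp5k had the largest rises. The sequences are from RefSeq (GRCm38.p6), read 5′ to 3′ toward the gene, and start 150 bases before the RefSeq start site. At most 30 of the printed bases lie within the gene model of the deposited table. Capitals mark the letters GCGCANGCG, the core of a site for the transcription factor NRF1, or CCAAT, on either strand.
Cox7a1 (chr7:30184021-30184170, plus strand): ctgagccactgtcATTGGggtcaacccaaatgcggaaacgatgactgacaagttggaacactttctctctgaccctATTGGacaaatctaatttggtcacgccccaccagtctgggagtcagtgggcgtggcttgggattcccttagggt
Cox7a2 (chr9:79759854-79760003, minus strand): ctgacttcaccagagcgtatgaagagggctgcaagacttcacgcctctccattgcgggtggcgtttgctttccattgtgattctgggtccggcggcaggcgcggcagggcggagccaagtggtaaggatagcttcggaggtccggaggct
Uqcc2 (chr17:27133892-27134041, minus strand): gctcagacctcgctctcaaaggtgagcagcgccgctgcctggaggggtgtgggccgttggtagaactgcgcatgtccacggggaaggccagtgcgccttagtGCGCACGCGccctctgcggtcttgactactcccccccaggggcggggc
Atp5k (chr5:108434419-108434549, minus strand): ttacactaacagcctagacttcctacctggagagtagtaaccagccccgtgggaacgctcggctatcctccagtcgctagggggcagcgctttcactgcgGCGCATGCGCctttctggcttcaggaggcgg
Uqcc2 held the NRF1 letters on the strand shown, and in Atp5k the site was found on both strands, shifted by 1 base. Cox7a1 held 2 copies of ATTGG, the reverse of CCAAT, and Cox7a2 held none of the letters searched.

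The whole windows, from 250 bases before to 50 bases after the start, were in the table for 40 of the 54 members. GCGCANGCG was in 12 of the 40 (30%), against 7.03% of 27025 genes with a window. Of the 8 members that rose and had a window, 5 held it (Atp5g2, Atp5g3, Atp5k, Atp5o and Uqcc2), and of the 31 that were not called, 7 held it. CCGGAAG, the core of sites for ETS factors such as GABPA, was in 14 of the 40 (35%), against 9.93% of all genes. AAGGTCA, the half-site of estrogen-related receptors, was in 5 (12.5%, against 5.38%). ATGGCG, the core of YY1 sites, was in 9 (22.5%, against 10.2%), and CCAAT was in 21 (52.5%, against 41.1%). Of the same 8 members that rose and 31 not called, CCGGAAG was in 2 and 11, and AAGGTCA in 2 and 3. ATGGCG was in 0 and 9, and CCAAT in 3 and 17. These splits, that of GCGCANGCG included, were not tested. Both strands were searched, and no motif contains another. The NRF1 spelling was settled after some windows had been read, and a match is a description, not a binding site.

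Most members did not pass the test, which does not show equal levels, and of the others more rose than fell. OGTBKO was compared with WT on the scale log2(FPKM + 0.5) with limma across all 13171 genes, and a gene was called at a Benjamini-Hochberg adjusted p under 0.05. Of the 54 members, 9 were called higher in OGTBKO, 1 was called lower and 44 were not called. Over all genes tested, 15.6% were called, 8.11% higher and 7.46% lower. Among the members 18.5% were called, close to the background, with 16.7% called higher and 1.85% lower. The groups did not overlap for 12 members (9 higher and 3 lower in OGTBKO), or 22.2%, against 22.5% of all genes. The median log2 change was 0.06 over the members and -0.002 over all genes, and members ranged from -0.56 to 1.60. With the trend of each library with GC content and gene length removed, the split was 7 higher and 5 lower, in place of 9 and 1. Cox16, Atp5g2 and Atp5g3 were then no longer called, and Cox6a1, Uqcr10, Atp5h, Atp5mpl and Cox7a2l were called lower. With library totals as the denominator, the median over all genes moved to 0.09 and the split was 6 higher and 0 lower, and over all genes 980 higher and 249 lower in place of 1068 and 982. The count of members called higher fell to 4 without WT 2, without WT 4 or without OGTBKO 4, and to 3 without OGTBKO 3. Cox7a1, Uqcc2 and Atp5k were called in all 20 alternative settings.

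**Figure D1:**
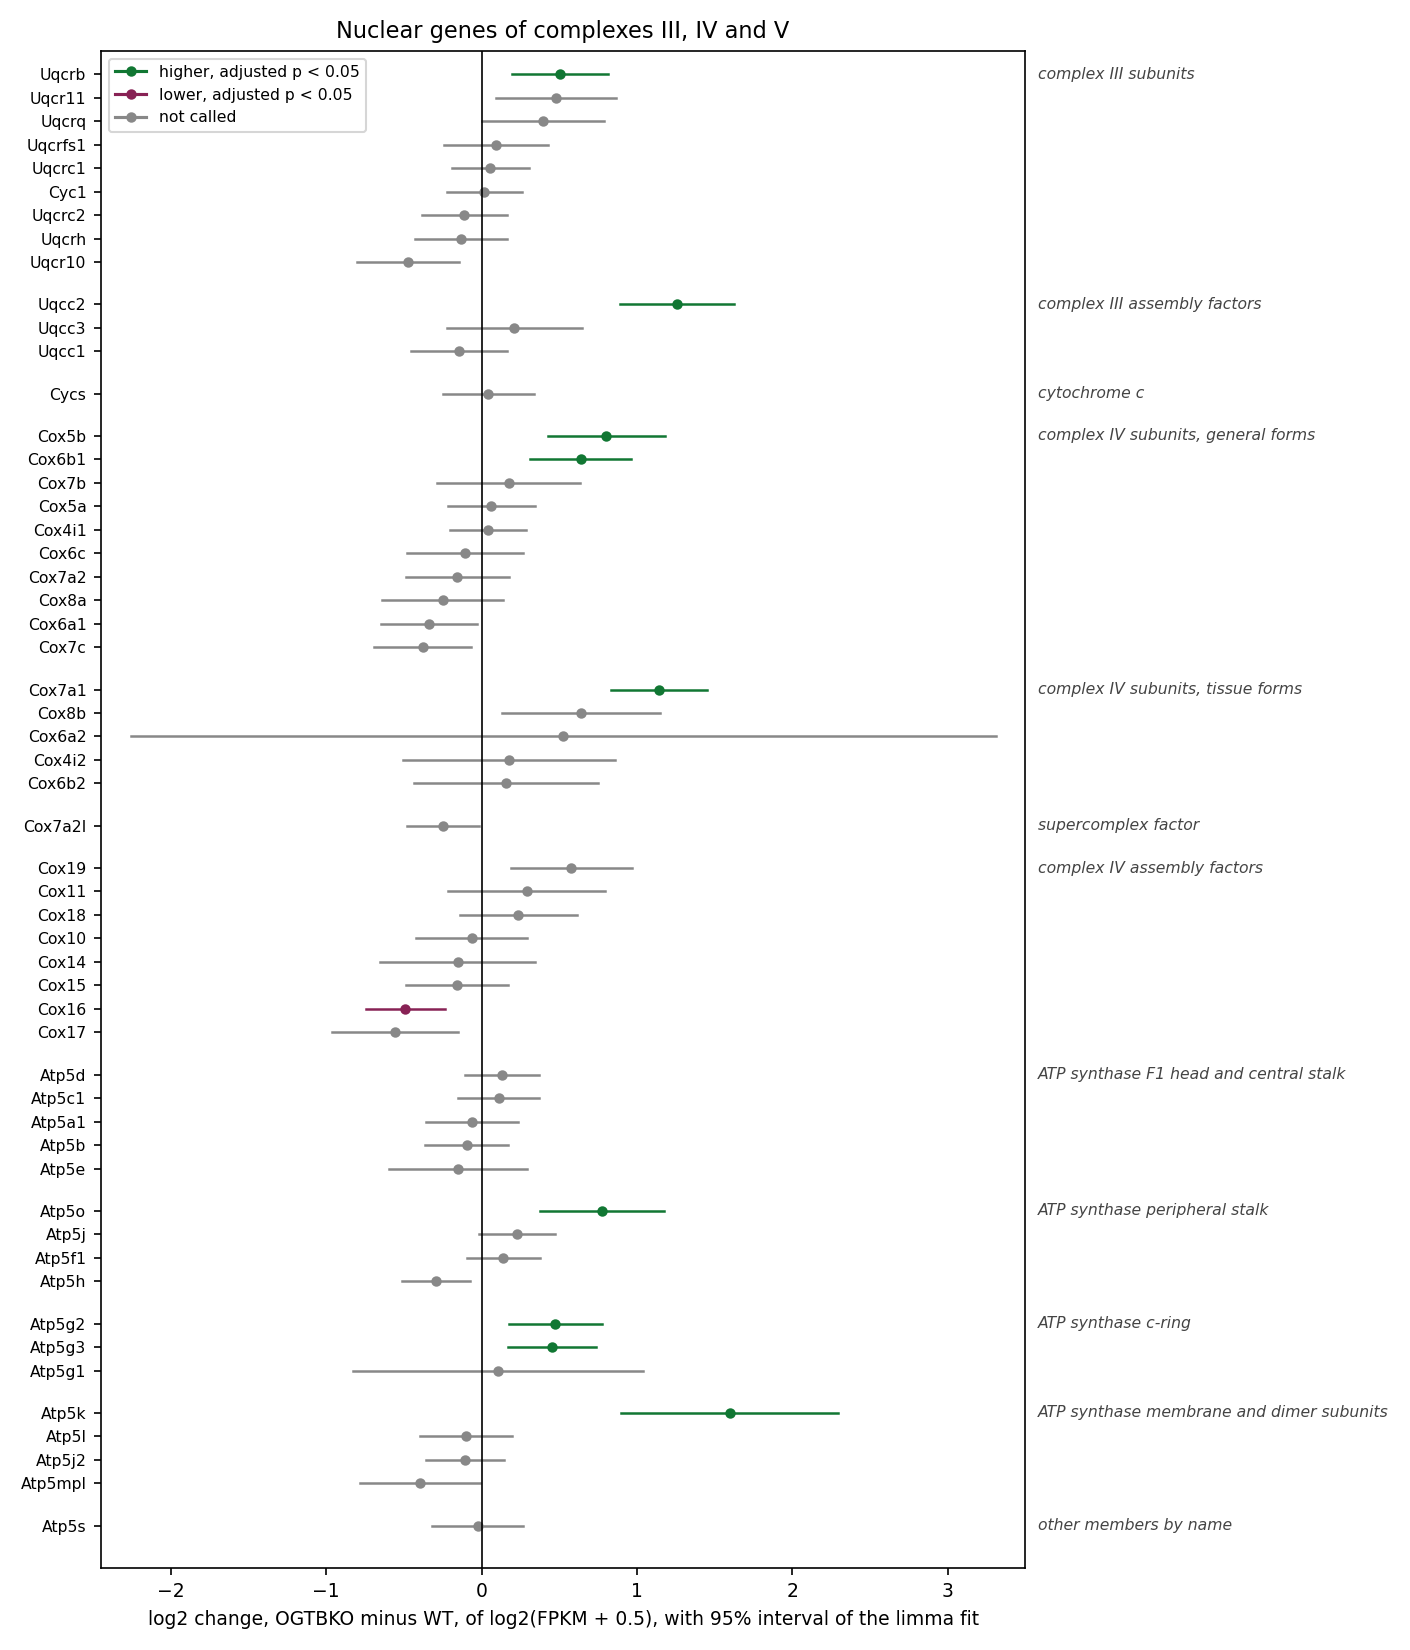
Log2 change of each of the 54 members (point) with the 95% interval of the limma fit (line), OGTBKO minus WT on the log2(FPKM + 0.5) scale, ordered by change within each role. The 9 green members were called higher and the 1 purple member, Cox16, was called lower, and the other 44 members were not called.

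Among the complex III subunits, 1 of 9 rose and 0 fell. Uqcrb, a small subunit at the ubiquinone-binding region, measured 153, 105, 113 and 133 FPKM in WT 1 to 4 and 182, 158, 179 and 189 FPKM in OGTBKO 1 to 4. All OGTBKO libraries were above all WT libraries (log2 0.50 ± 0.14, SE; limma adjusted p = 0.0385). The call held in 10 of the 20 alternatives and in 1 of the 8 that left out a single library. Other small subunits lay on either side of it. Uqcr11 measured 61.6 to 92.6 FPKM in WT and 88.8 to 140 FPKM in OGTBKO (log2 0.48, limma adjusted p = 0.0864). Uqcr10 measured 451, 373, 296 and 415 FPKM in WT and 301, 274, 252 and 267 FPKM in OGTBKO (log2 -0.47, limma adjusted p = 0.0571). WT 3 was the WT library that overlapped with OGTBKO for Uqcr10, and without it the gene was called lower (log2 -0.59, limma adjusted p = 0.0166). Uqcrq was at 172 FPKM in WT 1 and 100 to 109 FPKM in the other WT libraries, against 144 to 172 FPKM in OGTBKO. It was not called with all libraries (limma adjusted p = 0.148) and was called higher without both libraries numbered 1 (log2 0.53, limma adjusted p = 0.0292), a setting chosen after seeing the data.

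None of the larger subunits of complex III passed the test. Cyc1, the cytochrome c1 that hands electrons to cytochrome c, had means of 322 ± 17.8 FPKM in WT and 327 ± 25.9 FPKM in OGTBKO (SD, n = 4 each), with a 95% interval of the log2 change from -0.22 to 0.26. For the core subunits Uqcrc1 and Uqcrc2 the intervals ran from -0.19 to 0.31 and from -0.38 to 0.16. Uqcrfs1, the Rieske iron-sulfur protein, was the complex III member with the highest level (592 FPKM over the 8 libraries), and its interval ran from -0.24 to 0.43. Uqcrh, the hinge protein beside cytochrome c1, changed by -0.13 (-0.43 to 0.16).

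Of the 3 assembly factors that guide the newly made cytochrome b into complex III, Uqcc2 rose. Its gene (chr17:27122663-27133916, minus strand, mm10) measured 11.5, 8.10, 10.9 and 10.6 FPKM in WT and 29.3, 18.7, 27.6 and 26.2 FPKM in OGTBKO. The lowest OGTBKO library, OGTBKO 2, was above the highest WT library, and the means were 10.3 ± 1.496 and 25.5 ± 4.69 FPKM (SD), 2.48-fold apart (log2 1.26 ± 0.16, SE; limma adjusted p = 0.00383). Uqcc1, which acts as a partner of UQCC2, measured 16.6 to 25.5 FPKM in WT and 17.5 to 21.4 FPKM in OGTBKO (log2 -0.15, -0.46 to 0.16). Uqcc3, which acts after them, measured 13.3 to 22.0 and 14.98 to 25.3 FPKM (log2 0.21, -0.23 to 0.65). The groups overlapped for both of these. Cytochrome c itself (Cycs) was at 105 ± 13.1 and 108 ± 12.8 FPKM (log2 0.04, -0.25 to 0.34).

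In complex IV, 2 of the 10 subunits in their general form rose and 0 fell. Cox5b, the zinc-binding subunit on the matrix side, measured 56.4, 40.2, 50.9 and 61.5 FPKM in WT and 97.1, 69.8, 99.9 and 98.8 FPKM in OGTBKO (log2 0.80 ± 0.17, SE; limma adjusted p = 0.0166). OGTBKO 2 was the low library of its group and still above every WT library. Cox6b1, a subunit on the cytochrome c side, measured 370, 249, 294 and 286 FPKM in WT and 478, 406, 454 and 517 FPKM in OGTBKO, again without overlap (log2 0.64 ± 0.15, SE; limma adjusted p = 0.0227). Cox5b was called in 18 of the 20 alternatives and Cox6b1 in 13.

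The other 8 general forms did not pass the test, and 5 of the 10 had log2 changes below 0. Cox4i1, the largest nuclear subunit and the site at which ATP regulates the enzyme, measured 354 to 433 FPKM in WT and 392 to 423 FPKM in OGTBKO (log2 0.04, -0.20 to 0.29). Its sign turned with the GC and length trend removed (log2 -0.22) and without WT 3 (log2 -0.019). Cox6a1, with the highest level of all members (1090 FPKM over the 8 libraries), measured 1036 to 1358 FPKM in WT and 841 to 1040 FPKM in OGTBKO (log2 -0.34, limma adjusted p = 0.123). Cox7c measured 207 FPKM in WT 3 and 276 to 297 FPKM in the other WT libraries, against 191 to 226 FPKM in OGTBKO (log2 -0.38, limma adjusted p = 0.0926). Without WT 3 it was called lower (log2 -0.50, limma adjusted p = 0.0199), and Cox8a was as well (log2 -0.41, limma adjusted p = 0.0461). Cox5a, Cox6c and Cox7b had log2 changes of 0.06, -0.11 and 0.17, each with an interval that held 0.

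Of the 5 tissue forms of complex IV subunits, 1 rose, and 2 of the 4 pairs with a general form (Cox7a1 with Cox7a2, and Cox8b with Cox8a) had shares that did not overlap between the groups. Cox7a1 (chr7:30184144-30186078, plus strand, mm10), whose protein sits at the contact of the complex IV dimer, measured 105, 80.9, 77.9 and 109 FPKM in WT and 218, 187, 201 and 212 FPKM in OGTBKO. Every OGTBKO library was far above every WT library, and the means were 93.2 ± 16.1 and 205 ± 13.5 FPKM (SD), 2.19-fold apart (log2 1.14 ± 0.14, SE; limma adjusted p = 0.00317). Its general counterpart Cox7a2 measured 293, 276, 214 and 287 FPKM in WT and 208, 236, 228 and 289 FPKM in OGTBKO (log2 -0.16, -0.49 to 0.17). Cox7a1 made up 26.5%, 22.7%, 26.6% and 27.5% of the pair's summed FPKM in WT and 51.3%, 44.2%, 46.8% and 42.3% in OGTBKO. The groups were well apart, with means of 25.8% ± 2.12 and 46.2% ± 3.86 (SD), a difference of 20.3 percentage points. The share is within a library, so it does not depend on how libraries are scaled against each other, but both genes also have unequal lengths and GC content, as given below.

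Cox8b, the tissue form of the smallest subunit, measured 1208 FPKM in WT 1 and 675, 541 and 674 FPKM in WT 2 to 4, against 1129, 1201, 1110 and 1169 FPKM in OGTBKO. WT 1 was thus at the level of the OGTBKO libraries, and the gene was not called (log2 0.64 ± 0.23, SE; limma adjusted p = 0.0838). Without WT 1 it was called higher (log2 0.88, limma adjusted p = 0.00919), as it was without both libraries numbered 1 (log2 0.89, limma adjusted p = 0.0199). Cox8a, the general form, measured 436 to 744 FPKM in WT and 466 to 547 FPKM in OGTBKO (log2 -0.25, -0.64 to 0.14). Cox8b made up 65.8%, 49.9%, 55.4% and 47.5% of that pair in WT and 67.4%, 70.3%, 70.5% and 68.8% in OGTBKO. Even WT 1 was below every OGTBKO library on this share, by a narrow margin, and the means were 54.7% ± 8.12 and 69.2% ± 1.44 (SD), 14.6 points apart.

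**Figure D2:**
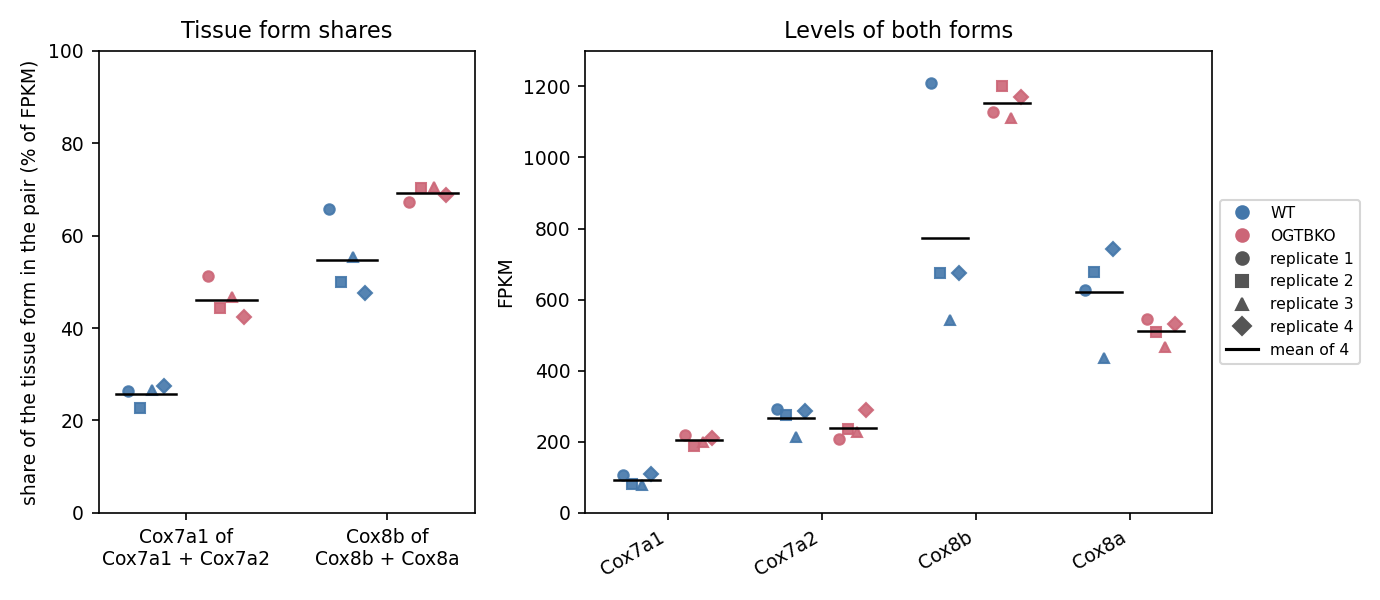
Left, share of the tissue form in the summed FPKM of each pair (%), and right, FPKM of the 4 genes, for 4 WT and 4 OGTBKO libraries (points, shape by library number) with the mean (line). Cox7a1 and its share were higher in all OGTBKO libraries, while the Cox8b share of WT 1 (65.8%) came close to the lowest OGTBKO library (67.4%).

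The remaining tissue forms were scarce. Cox4i2, a form found mainly in lung and in cells that sense oxygen, measured 2.01 to 4.27 FPKM in WT and 2.01 to 5.10 FPKM in OGTBKO, and made up 0.734% ± 0.258 and 0.845% ± 0.362 (SD) of its pair. In both groups libraries 2 and 4 had the higher Cox4i2 levels. Cox6b2, known from testis, had means of 0.810 ± 0.478 and 0.911 ± 0.267 FPKM (SD). Cox6a2, the form of heart and skeletal muscle, reached 6.05 FPKM in WT 1 and 20.96 FPKM in OGTBKO 1, and was listed at 0 to 0.450 FPKM in the other 6 libraries. Its interval ran from -2.26 to 3.31 on the log2 scale, and its sign turned without OGTBKO 1 (log2 -0.72). It passed the level limit through those 2 libraries.

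Cox6a2 was high in the libraries where skeletal muscle markers were high, and Cox7a1 was high in all 4 OGTBKO libraries. Of the 15 markers, 14 were tested and 0 passed in either direction. In OGTBKO 2 and OGTBKO 4, where the markers summed to 22.6 and 26.5 FPKM and Ckm, Myh4, Pvalb and Myoz1 were at 0, Cox7a1 was at 187 and 212 FPKM. In WT 1, where the markers summed to 670 FPKM, Cox7a1 was at 105 FPKM, within the range of the other WT libraries. Without both libraries numbered 1, the Cox7a1 change was as large as with them (log2 1.17, limma adjusted p = 0.0103). For Cox8b the picture was mixed, since WT 1 was high in both Cox8b and muscle markers while OGTBKO 2 to 4 were high in Cox8b with markers at 22.6 to 34.6 FPKM. Marker sums were high in only 1 library of each group, and the part of muscle RNA in the Cox8b and Cox7a1 values was not tested.

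**Figure D3:**
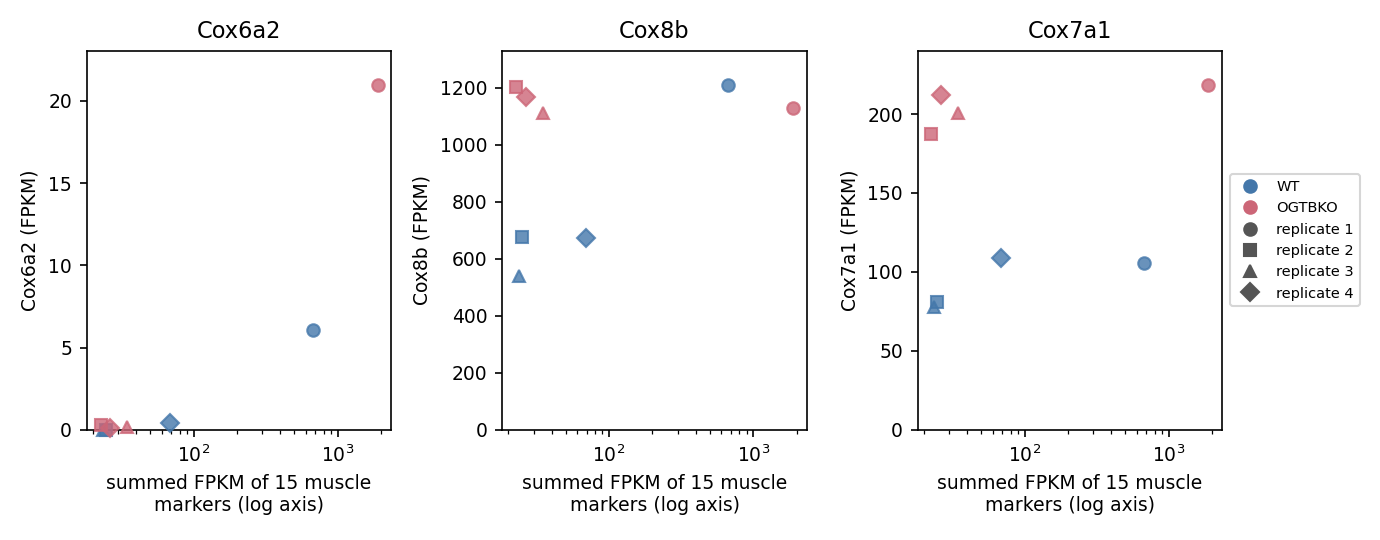
FPKM of Cox6a2, Cox8b and Cox7a1 against the summed FPKM of 15 skeletal muscle markers (log axis) in each of the 8 libraries. Cox6a2 reached 6.05 and 20.96 FPKM only in the 2 libraries with marker sums of 670 and 1890 FPKM, which is 1 library of each group, and Cox7a1 lay at 187 to 218 FPKM in OGTBKO and 77.9 to 109 FPKM in WT.

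Cox7a2l, which joins complexes III and IV into supercomplexes, measured 110, 130, 108 and 119 FPKM in WT and 100.1, 99.8, 89.3 and 104 FPKM in OGTBKO. The OGTBKO libraries were all below the WT libraries, by little, and the gene did not pass the test (log2 -0.25, -0.48 to -0.01; limma adjusted p = 0.134). Cox7a1 and Cox7a2l are relatives of Cox7a2, so the 3 genes of this family had log2 changes of 1.14, -0.25 and -0.16.

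Complex IV assembly factors held the 1 member that fell. Cox16, needed for maturation of the copper-binding subunit COX2, measured 2.21, 2.23, 1.89 and 2.30 FPKM in WT and 1.41, 1.29, 1.25 and 1.63 FPKM in OGTBKO, without overlap (log2 -0.49 ± 0.11, SE; limma adjusted p = 0.0229). The call held in 9 of the 20 alternatives, and the change was smaller once the trend with GC and length was taken out (log2 -0.27, limma adjusted p = 0.133). Of its 50-base windows, 74.5% also occur in another annotated gene, the read-through model Gm20498 among them, so the reads of the 2 models could be split between them. Copper delivery factors went either way without passing the test. Cox17, the copper chaperone, measured 1.60 to 2.29 FPKM in WT and 0.771 to 1.64 FPKM in OGTBKO (log2 -0.56, limma adjusted p = 0.0644). Cox19 measured 9.43 to 13.2 and 12.5 to 21.3 FPKM (log2 0.58, limma adjusted p = 0.0511), and it was called higher in 7 of the 20 alternatives. Cox11, which hands copper to COX1, changed by 0.29 (-0.22 to 0.80). The heme A synthesis genes Cox10 and Cox15 changed by -0.06 and -0.16. Cox14, tied to synthesis of COX1, changed by -0.15, and Cox18, which inserts COX2 into the membrane, by 0.24, each with an interval that held 0.

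ATP synthase has a head that makes ATP, a rotor with a ring of c subunits, a stalk that holds the head still, and membrane subunits that shape its dimers. In the head and central stalk, 0 of 5 genes were called. Atp5a1 and Atp5b, the α and β subunits, had means of 1007 ± 108 and 833 ± 65.7 FPKM (SD) in WT and 964 ± 78.4 and 779 ± 53.0 FPKM in OGTBKO. Intervals of the log2 change ran from -0.35 to 0.23 for Atp5a1 and from -0.36 to 0.17 for Atp5b. Atp5c1, Atp5d and Atp5e, the central stalk, changed by 0.11, 0.13 and -0.15, and the interval for Atp5e (-0.60 to 0.29) was the widest of the 5, with WT 1 at 135 FPKM and the other WT libraries at 66.5 to 89.1 FPKM.

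In the peripheral stalk, 1 of 4 genes rose. Atp5o, the subunit that ties the stalk to the head, measured 49.2, 38.4, 55.9 and 41.7 FPKM in WT and 90.7, 57.2, 89.4 and 83.3 FPKM in OGTBKO. OGTBKO 2 was low in its group and just above the highest WT library, WT 3 (log2 0.78 ± 0.18, SE; limma adjusted p = 0.0227). The call held in 14 of the 20 alternatives, and it was lost without both libraries numbered 1 (log2 0.74, limma adjusted p = 0.0576). Atp5h, another stalk subunit, measured 156 to 162 FPKM in WT and 120 to 144 FPKM in OGTBKO, in the opposite direction and without overlap, and did not pass the test (log2 -0.30, limma adjusted p = 0.0684). Atp5f1 and Atp5j, the stalk's b subunit and coupling factor, changed by 0.14 (-0.10 to 0.37) and 0.23 (-0.01 to 0.47).

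The c subunit that forms the proton-carrying ring is encoded by 3 nuclear genes that give the same mature protein, and 2 of them rose. Atp5g2 measured 49.4, 36.7, 41.2 and 44.3 FPKM in WT and 54.9, 51.2, 67.2 and 66.1 FPKM in OGTBKO (log2 0.47 ± 0.13, SE; limma adjusted p = 0.0422). Atp5g3 measured 76.1, 72.5, 67.6 and 61.1 FPKM in WT and 79.5, 93.5, 98.3 and 111 FPKM in OGTBKO (log2 0.45 ± 0.13, SE; limma adjusted p = 0.0416). In both genes the lowest OGTBKO library stood little above the highest WT library. Both calls were near the threshold and held in 8 of the 20 alternatives each. With the GC and length trend removed, the change of Atp5g2 went from a log2 of 0.47 to 0.15 (limma adjusted p = 0.473). Atp5g3 was then at 0.35 (limma adjusted p = 0.0926). Atp5g1 had means of 1.03 ± 0.677 and 1.102 ± 0.731 FPKM (SD). The proportions within the ring overlapped between the groups, and Atp5g3 made up 61.2% ± 3.595 of the summed FPKM of the 3 genes in WT and 61.0% ± 2.85 in OGTBKO (SD).

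Among the membrane subunits, 1 of 4 rose, and it had the largest change of all 54 members. Atp5k, subunit e, which with subunit g holds ATP synthase in dimers (chr5:108433244-108434448, minus strand, mm10), measured 113, 38.3, 48.8 and 39.6 FPKM in WT and 169, 142, 162 and 185 FPKM in OGTBKO. WT 1 stood well above the other WT libraries but below every OGTBKO library (log2 1.60 ± 0.31, SE; limma adjusted p = 0.0135). Without WT 1 the change was larger (log2 1.95, limma adjusted p = 0.00135). Atp5l, subunit g, measured 24.6 to 34.9 FPKM in WT and 24.2 to 29.7 FPKM in OGTBKO (log2 -0.10, -0.40 to 0.20). Atp5j2, subunit f, changed by -0.11 (-0.36 to 0.15). Atp5mpl, a small proteolipid of the complex, measured 93.4 to 148 and 79.8 to 117 FPKM and did not pass the test (log2 -0.39, limma adjusted p = 0.146). It was called lower without WT 3 (log2 -0.54, limma adjusted p = 0.0365). Most of the Atp5l sequence is shared with pseudogenes, as given below. Atp5s, a coupling factor related by name, was at 6.30 ± 0.421 and 6.23 ± 1.09 FPKM (SD).

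**Figure D4:**
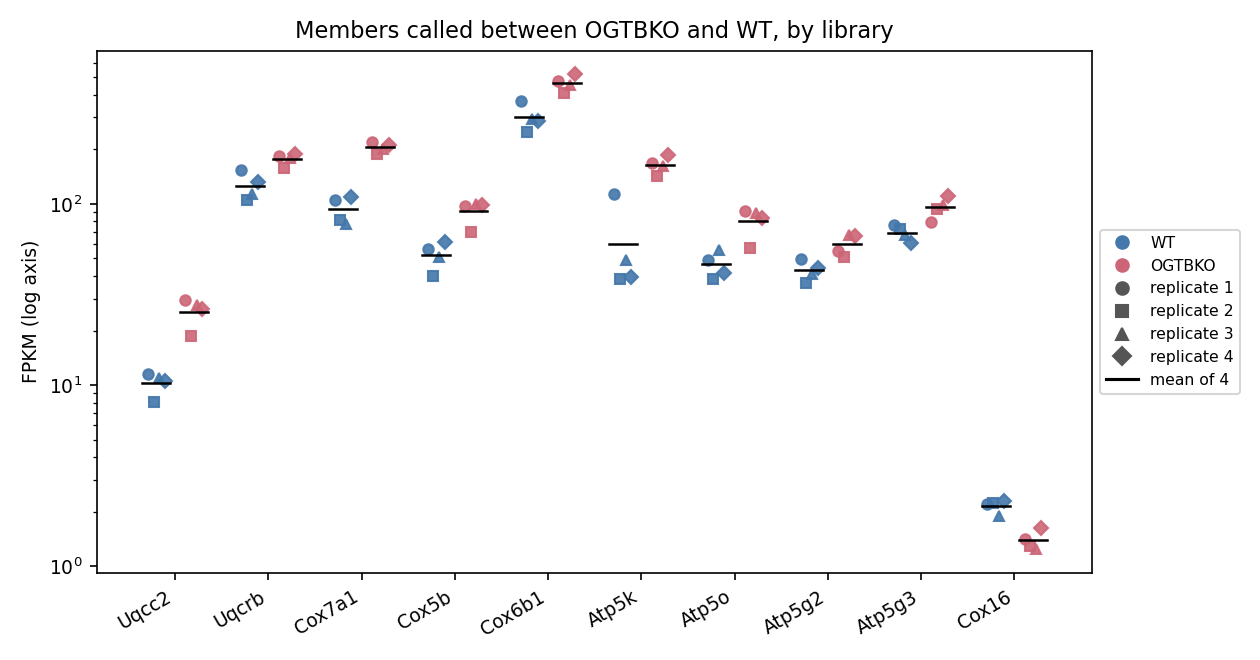
FPKM (log axis) of the 10 members called, in 4 WT and 4 OGTBKO libraries (points, shape by library number) with the mean of each group (line). The groups do not overlap for any of the 10, Atp5k in WT 1 (113 FPKM) lies apart from the other WT libraries, and Cox16 is the 1 gene lower in OGTBKO.

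The subunits that these proteins join in the mitochondrion did not move the same way. Of 6 mitochondrially encoded partners, 0 were called higher and 2 were called lower, and all 6 log2 changes were below 0. The share called lower was 33.3%, against 7.46% of all genes tested. mt-Co3, a core subunit of complex IV, measured 2072, 3598, 3899 and 3314 FPKM in WT and 1213, 781, 1914 and 1257 FPKM in OGTBKO, without overlap (log2 -1.35 ± 0.29, SE; limma adjusted p = 0.0191). mt-Atp8, a subunit of ATP synthase, measured 11.7 to 27.3 FPKM in WT and 5.18 to 13.7 FPKM in OGTBKO (log2 -1.35, limma adjusted p = 0.0285), and its call held in 10 of the 20 alternatives. That call was lost without WT 3 (log2 -1.21, limma adjusted p = 0.0556) and once the trend with GC and length was taken out (log2 -0.91, limma adjusted p = 0.196). mt-Co2 measured 1903 to 6561 and 1432 to 1834 FPKM (log2 -1.03, limma adjusted p = 0.0825), and mt-Atp6 measured 2503 to 5789 and 1135 to 2796 FPKM (log2 -1.14, limma adjusted p = 0.0525). mt-Co1 and mt-Cytb, with group means between 44641 and 56165 FPKM, had log2 changes of -0.09 and -0.10. WT 3, with the most mitochondrial reads, had the highest level of mt-Co1, mt-Co2, mt-Co3, mt-Atp8 and mt-Cytb.

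The mean log2 level of each set, with equal weight for each gene, was compared library by library, as a description. The mitochondrially encoded set was mt-Cytb for complex III, and mt-Co1, mt-Co2 and mt-Co3 for complex IV. That of complex V held only 2 genes, mt-Atp6 and mt-Atp8. There mt-Atp8, at 14.9 FPKM over the 8 libraries, counted as much as mt-Atp6, at 3151 FPKM. For complex V, the nuclear subunits were at -1.53, -2.07, -2.40 and -1.53 relative to the mitochondrially encoded ones in WT and at -1.02, -0.06, -0.10 and -0.67 in OGTBKO, so the groups did not overlap and the means differed by 1.42. For complex IV the difference between the groups was 1.03, and they overlapped, with WT 1 at -5.68 inside the OGTBKO range of -5.68 to -5.32. Without WT 3 the complex IV difference was 0.69 and that for complex V was 1.25. For complex III the difference was 0.20, with overlap, and its sign turned without WT 3 (-0.038) and once the trend with GC and length was taken out (-0.049). For complexes IV and V the mitochondrially encoded side carried most of the difference. It changed by -0.82 for complex IV and -1.24 for complex V, against 0.21 and 0.18 for the nuclear side. Not all of its genes fell alike. The log2 changes were -1.03 to -1.35 for mt-Co2, mt-Co3, mt-Atp6 and mt-Atp8, but -0.09 for mt-Co1 and -0.10 for mt-Cytb. Sequence shared with other genes, and overlaps with them, were searched for the nuclear members only. The part of sequence copies and of overlapping genes in the mitochondrially encoded values, mt-Atp8 and mt-Atp6 included, was therefore not tested.

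**Figure D5:**
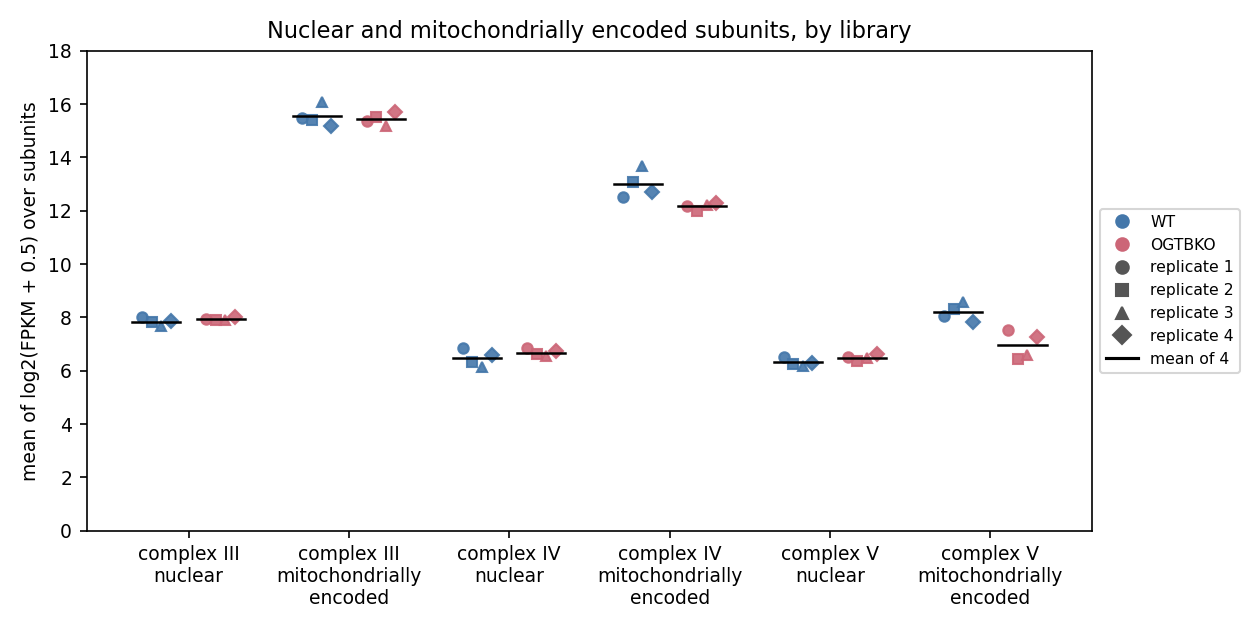
Mean of log2(FPKM + 0.5) over the nuclear and over the mitochondrially encoded subunits of complexes III, IV and V, for 4 WT and 4 OGTBKO libraries (points, shape by library number) with the mean of each group (line). Nuclear sets overlap between the groups, while the mitochondrially encoded sets of complexes IV and V lie lower in all OGTBKO libraries.

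Nuclear partners of the 3 complexes that the name rule leaves out were mixed as well: of 28 tested, 4 rose, 3 fell and 21 were not called. The share called was 25% (14.3% higher and 10.7% lower), against 15.6% of all genes tested (8.11% higher and 7.46% lower). Higd2a, a factor for complex IV and supercomplex assembly, measured 46.4, 30.5, 28.6 and 44.2 FPKM in WT and 85.2, 79.4, 89.0 and 92.7 FPKM in OGTBKO (log2 1.23 ± 0.17, SE; limma adjusted p = 0.00465). Pet100 and Coa6, which assist complex IV assembly and copper insertion, rose by a log2 of 0.85 and 0.67 (limma adjusted p = 0.0121 and 0.0167). Atpif1, the protein that blocks ATP hydrolysis by ATP synthase, measured 0.969 to 1.698 FPKM in WT and 2.54 to 5.08 FPKM in OGTBKO (log2 1.33 ± 0.20, SE; limma adjusted p = 0.00628). These 4 were called in all 20 alternatives, without overlap between the groups. Lyrm7 and Ttc19, which insert the Rieske protein into complex III and clear its remnants, had log2 changes of -0.69 and -0.36 and fell (limma adjusted p = 0.022 and 0.0464). Coa5, a complex IV assembly factor, measured 83.4 to 106 FPKM in WT and 60.4 to 72.8 FPKM in OGTBKO (log2 -0.51, limma adjusted p = 0.0207). Of the 20 alternatives, Lyrm7 was called in 17, Coa5 in 14 and Ttc19 in 8. Ttc19 was not called with the GC and length trend removed (limma adjusted p = 0.0945) or with library totals (limma adjusted p = 0.309), and 0 of these 3 were called without WT 2. Of the other complex III assembly factors, Uqcc1, Uqcc3, Bcs1l and Hccs were not called. Ndufa4, now counted as a complex IV subunit, changed by -0.07. Sco2 and Pet117 were listed at 0 in all libraries.

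Short genes and genes with pseudogene copies are common in this family, and both bear on the values. The 9 members that rose had a median exonic length of 876 bases and a median GC content of 51.0%, the 44 not called 1870 bases and 50.3%, and all genes tested 3844 bases and 49.4%. Cox7a1 (535 bases, 55.3% GC) was shorter than Cox7a2 (944 bases, 51.9% GC). With the GC and length trend removed, Cox7a1 still rose (log2 0.93, limma adjusted p = 0.00468), as did Uqcc2 (log2 1.06, limma adjusted p = 0.00814) and Atp5k (log2 1.37, limma adjusted p = 0.0213). Among the 54 members, 19 shared over 10% of their 50-base windows with another annotated gene, so reads could be split between copies. The share was 0% for Cox7a1, Cox7a2, Cox8a, Cox8b and Cox6b1, 0.661% for Uqcc2 and 1.08% for Atp5k. It was 84.8% for Atp5l, whose pseudogene Gm10221 was listed at a higher level (235 ± 39.7 FPKM in WT and 196 ± 16.3 in OGTBKO, SD) than Atp5l itself. For Atp5o it was 47.6%, for Uqcrb 43.4%, for Atp5g2 38.3% and for Cox5b 21.8%. The second gene model named Atp5o was among the genes that share sequence with Atp5o. The Uqcrb pseudogene Gm2962 moved opposite to Uqcrb, from 20.1 ± 2.76 to 7.70 ± 2.25 FPKM (log2 -1.36, limma adjusted p = 0.00502), at a lower level than the 151 FPKM of Uqcrb over the 8 libraries. Gm11273, which shares sequence with Cox5b, moved with it (log2 1.05, limma adjusted p = 0.0285). Cycs, which was not called, shared 28.5% of its windows. Its protein-coding copy Gm10053 rose from 33.2 ± 2.33 to 50.2 ± 8.90 FPKM (log2 0.57, limma adjusted p = 0.0280). Exons of 10 members overlap those of a gene on the other strand that reached 0.5 FPKM. The 10 are Cox4i1, Cox6c, Cox10, Cox11, Cox15, Uqcrb, Atp5a1, Atp5f1, Atp5j and Atp5l. The use of strand in counting is not stated, so reads of the overlaps cannot be assigned. Overlaps on either strand with genes below that level, such as the second Atp5o model with Atp5o, were not counted.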

How the data were processed

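RNA from whole brown fat of 4 WT and 4 OGTBKO libraries was sequenced. The tools named in the submitters' processing notes are HISAT2 2.0.5, Subread and featureCounts 1.5.0-p3, with the build mm10, and the use of strand is not stated. The authors deposited 1 table of FPKM per gene and library. Times gene length, the deposited FPKM gave whole reads for 100% of values (tolerance 0.001). The denominators were 0.790 to 1.13 times the library totals, so the table is already scaled between libraries. No value columns were left out.

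Genes with a mean of at least 0.5 FPKM were tested as log2(FPKM + 0.5) of the deposited values, which understates changes at low levels, with limma 3.58.1 (R 4.3.3, moderated two-sided test with trend, no covariates, Benjamini-Hochberg over 13171 genes). Every adjusted p is from limma. Errors are SDs over libraries or SEs of the fit, and intervals are 95%. Shares and list means have no test. GC content, lengths and shared 50-base windows came from GENCODE M21, and 98.3% of coordinates in the table were the same there.

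The members, lists, markers and settings were chosen with earlier results of these data known. Any member could be named. Partners were named where called, with others by role. Alternatives were the pseudocount, the level filter, the denominator, a GC and length trend, a replicate block, array weights, voom on back-calculated reads and each library left out. Both settings without the libraries numbered 1 were added after seeing the data. The fit was tested on simulated data.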

Additional observations from a re-analysis of the deposited data

Results flagged for a closer look

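Within each group of 4 libraries, the highest and lowest library were compared with the rest by Dixon's gap test for every member, share and list mean. Chance flags about 1 in 20 such groups, and 11 of the 158 examined stood out. Of these, 7 concerned libraries numbered 1. Cox6a2 was highest in WT 1 (6.05 FPKM) and in OGTBKO 1 (20.96 FPKM), and so was its share of the Cox6a1 and Cox6a2 pair, at 0.443% and 2.17%. Those are the libraries in which skeletal muscle markers summed to 670 and 1890 FPKM. Atp5k was highest in WT 1, at 113.0 FPKM, while WT 2 to 4 had 38.3 to 48.8 FPKM. Uqcrq was highest in WT 1 at 171.9 FPKM and Cox7b in WT 1 at 284.0 FPKM, which is above all 4 OGTBKO libraries for Cox7b. Cox5b was lowest in OGTBKO 2, at 69.8 FPKM against 97.1 to 99.9 FPKM in the others. Atp5l was highest in OGTBKO 4 at 29.7 FPKM. The mean log2 level of the general complex IV subunits was also highest in OGTBKO 4, at 8.09. That of the complex IV assembly factors was lowest in WT 3, at 2.69, the library with the largest mitochondrial share of reads.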

How the results depend on the processing

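In 20 alternatives, Cox7a1, Uqcc2, Atp5k and the partners Pet100, Coa6, Higd2a and Atpif1 stayed called. Genes called in all numbered 1229 with no filter, 1229 with library totals, 3516 with array weights, and 694 to 2115 with a single library left out. Members called higher numbered 5 with no filter and 3 to 12 without a single library. Members called lower numbered 0 with no filter, with library totals and without both libraries numbered 1, and 5 once each library's trend with GC and length was removed. They numbered 7 with array weights, 3 with voom, 3 without the libraries numbered 1 and with the trend removed, and 0 to 5 without a single library (5 without WT 3). Partners called lower numbered 2 with no filter, 3 with library totals, 3 with the trend removed, 9 with array weights and 0 to 6 without a single library. The causes were not tested, apart from the smaller number of samples or larger number of genes by construction.

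Differences in mean log2 level moved for a few lists. With library totals they were 0.10 for the ATP synthase head, 0.33 for the peripheral stalk and 0.21 for complex III subunits, and with the trend removed -0.17 for the head and -0.029 for complex III subunits. Without the libraries numbered 1 and with the trend removed they were -0.13 for the head and 0.21 for complex III assembly factors. Signs turned for uncalled members. Cox4i1 was at -0.224 with the trend removed, -0.224 with block and trend, -0.197 without the libraries numbered 1 and with the trend removed, and -0.019 (without WT 3) to 0.077 without a single library. Under the same settings Cox4i2 was at -0.073, -0.073, -0.038 and -0.0086 (without OGTBKO 4) to 0.378. Cox6a2 was at -0.102 without the libraries numbered 1 and with the trend removed, and at -0.72 (without OGTBKO 1) to 1.38 (without WT 1) without a single library.

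With the replicate block, 888 genes, 6 members higher, 0 members lower and 2 partners lower were called, and with the trend removed as well 531 genes, 6 members higher, 1 lower and 0 partners lower. Same-numbered libraries correlated in their deviations by 0.22, 0.17, 0.01 and -0.01. Numbers 1 and 2 correlated best with their own number, and numbers 3 and 4 did not. With 4 libraries in each group, these correlations cannot decide whether the numbers pair the samples, and the main fit treated them as unpaired. Low levels limit Cox6b2, Atp5g1, Cox17 and Cox16, where 1 read per kb is worth up to 0.0945 FPKM.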
